A study of Gallus gallus with 6 samples.

Results

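Cytosolic ribosomes were examined through the genes of their proteins in primary muscle cells cultured from chicken embryos. The genes were chosen by name. A gene belonged if its listed name starts with RPL or RPS and a digit, or is RPLP0, RPLP1, RPLP2 or RPSA, and ribosomal S6 kinases were left out. The rule took 67 of the 24881 Ensembl genes listed in all 6 libraries. Of these, 61 are core subunit names, 34 of the large and 27 of the small subunit. Another 5 are paralogs by their listed names, RPL3L, RPL7L1, RPL10L, RPL22L1 and RPS27L. The last is RPS19BP1, an RPS19-binding protein that is no ribosomal subunit.

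Myotubes, the fused multinucleated cells, were kept in differentiation medium, RPMI-1640 with 2% horse serum, and myoblasts, their dividing precursors, in growth medium with 15% fetal bovine serum. All cells were at passage 1, and each group had 3 RNA-seq libraries. Nothing in the labels tells if replicates were separate embryos or separate cultures, so the spread behind each p-value may be technical. Medium and serum changed together with the cell stage and cannot be told apart from it.

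A cytosolic ribosome has a small subunit, which binds and reads the mRNA, and a large subunit, which joins amino acids and lets the chain leave through a tunnel. Most of its proteins are needed in equal numbers, and in vertebrates their mRNAs share a terminal oligopyrimidine tract through which mTOR signalling and LARP1 set their translation and stability together. Growing and dividing cells make many ribosomes, and some ribosomal proteins have paralogs with a restricted tissue distribution, among them RPL3L in striated muscle of mammals.

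The share of the libraries taken by ribosomal protein mRNA did not differ between the groups beyond the spread of the replicates. The 67 genes held 5.94, 6.71 and 6.37% of gene counts in the myotube libraries, against 6.09, 6.44 and 6.62% in the myoblast libraries. The groups overlap, with means of 6.34% ± 0.385 in myotubes and 6.38% ± 0.273 in myoblasts (SD, n = 3 each). As a share of summed FPKM (fragments scaled by gene length and library size, deposited by the authors), the genes held 15.3% ± 0.926 in myotubes and 14.1% ± 0.380 in myoblasts. By that measure the groups also overlap, since the lowest myotube library, at 14.2%, lay under the highest myoblast library, at 14.5%.

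Within this even total, single genes differed. Counts were tested with the edgeR quasi-likelihood test with TMM scaling, which sets library sizes by a trimmed mean of gene ratios, and p-values were adjusted over the 12808 genes whose FPKM averaged 1 or more. Of the 67 genes 66 were tested and only RPL3L lay under that filter. At an adjusted p under 0.05, 9 of the 66 were higher in myotubes (13.6%), where 36.7% of all tested genes were higher. Another 22 were lower (33.3%), close to the 35.7% of all tested genes that were lower, and 35 were not called. Log2 fold changes of myotube over myoblast had a median of -0.08 over the 66 genes and of 0.01 over all tested genes.

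The changes were small. Of the 66 genes, 63 lay within 1.5-fold in either direction, while 46.9% of all tested genes lay outside it. No ribosomal protein gene was called higher by at least 1.5-fold (24.2% of all tested genes were), and 3 were called lower by that much (4.55%, against 21.2% of all tested genes). These were RPL38, RPS21 and RPLP2. On the TPM scale described below, RPL22L1 and RPS3A passed that size as rises. They also did with the length trend removed and with libraries scaled by the ribosomal protein genes. RPLP2 fell short of that size on the TPM scale (1.41-fold lower) and with the length trend removed (1.43-fold lower). The SD of the log2 fold changes was 0.29 over the 66 genes and 1.17 over all tested genes.

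**Figure D1:**
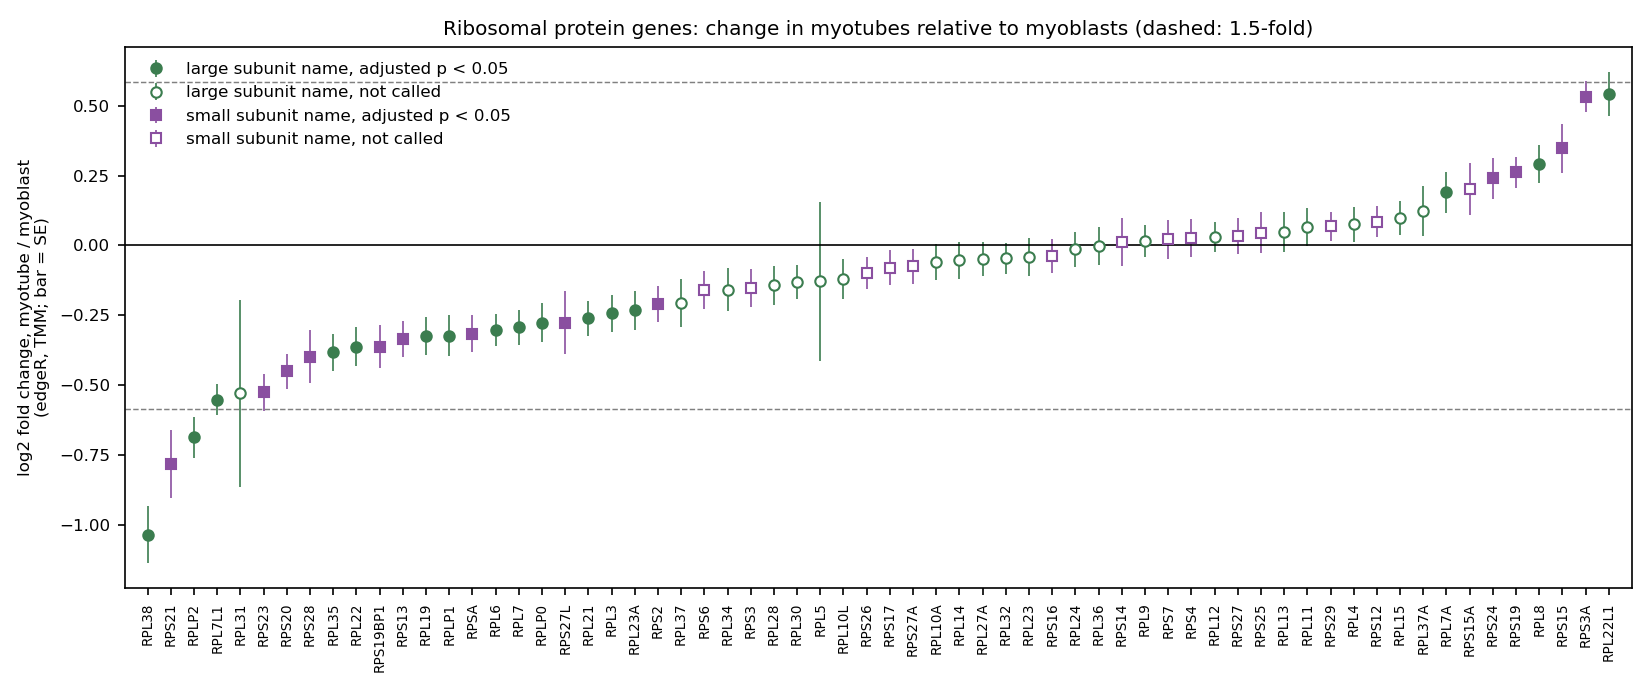
Each point is the fitted log2 fold change (myotube over myoblast, vertical axis) of 1 of 64 ribosomal protein genes, ordered by size along the horizontal axis, with its standard error as a bar. Circles are large and squares small subunit names, filled symbols have an adjusted p under 0.05, and 3 genes, RPL38, RPS21 and RPLP2, lie below the dashed line of 1.5-fold.

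The subunits were read side by side, with the 36.7% of all tested genes called higher and 35.7% called lower under TMM as background. Of 34 core large subunit genes, 2 were called higher and 12 lower, with a median log2 fold change of -0.13 (35.3% lower, near the background). Of 27 core small subunit genes, 6 were called higher and 7 lower, with a median of 0.01. On the TPM scale described below, the large subunit had 12 higher (35.3%) and 3 lower and the small subunit 14 higher (51.9%) and 3 lower. On that scale 45.8% of all tested genes were higher and 27.0% lower. With the length trend removed, 9 were higher and 7 lower in the large and 12 higher and 6 lower in the small subunit. In that fit 34.8% of all tested genes were higher and 37.4% lower. The difference between the subunits was not tested, since both are lists of genes and not replicates. Summed FPKM of the small over the large core genes gave a ratio of 1.07, 1.06 and 1.07 in myotube libraries, against 1.00, 1.00 and 1.00 in myoblast libraries. This ratio does not depend on the scaling of the libraries, and the 3 myotube libraries lay above the 3 myoblast libraries.

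RPL38, a large subunit surface protein that in mouse affects translation of homeobox gene mRNAs, had the largest fall. It lies on chromosome 18 from 9191872 to 9194395, plus strand, in the tables' own coordinates, whose genome build the sources used here do not give. Its level was 288, 374 and 387 CPM (counts at a common, TMM-scaled library size) in myotubes, against 674, 719 and 757 CPM in myoblasts. All 3 myotube libraries lay under every myoblast library. RPL38 was 2.05-fold lower in myotubes (log2 fold change -1.04 ± 0.10, SE, adjusted p = 8.5e-06, edgeR).

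The ribosomal stalk, which recruits elongation factors to the large subunit, is built from RPLP0, RPLP1 and RPLP2 on a base of RPL12. These 4 genes, like the other structural groups below, were put together after their values were seen. RPLP2 had 489, 567 and 577 CPM in myotubes, against 828, 889 and 914 CPM in myoblasts, with no overlap of the groups. It was 1.61-fold lower in myotubes (log2 fold change -0.69 ± 0.07, adjusted p = 1.4e-05, edgeR). Its partners moved less. RPLP1 was lower with a log2 fold change of -0.32 ± 0.07 (adjusted p = 0.0023), and RPLP0, which anchors the P proteins, with -0.28 ± 0.07 (adjusted p = 0.005), and neither was called on the TPM scale. RPL12 averaged 793 ± 4.53 CPM in myotubes and 776 ± 34.8 CPM in myoblasts (SD, n = 3 each), and its log2 fold change of 0.03 ± 0.05 was not called (adjusted p = 0.64).

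Within the stalk the proportions of the mRNAs therefore differed between the groups. The FPKM of RPLP2 divided by that of RPLP0 was 0.393, 0.416 and 0.489 in myotube libraries, against 0.574, 0.589 and 0.559 in myoblast libraries. Each myotube library lay below each myoblast library. For RPLP1 over RPLP0 the ratios were 1.23, 1.33 and 1.41 in myotubes and 1.36, 1.42 and 1.32 in myoblasts, and these overlap.

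Of 5 proteins around the exit of the peptide tunnel, 4 were called lower under TMM, where 35.7% of all tested genes were, and 1, RPL35, on the TPM scale, where 27.0% were. RPL35 had 711, 791 and 786 CPM in myotubes, against 933, 1022 and 1029 CPM in myoblasts, a log2 fold change of -0.38 ± 0.06 (adjusted p = 0.00038). RPL22, RPL19 and RPL23A had log2 fold changes of -0.36, -0.32 and -0.23, and in each the groups did not overlap. None of these 3 was called on the TPM scale. Of the 8 scalings described below, RPL22 and RPL19 were called lower in 7 and RPL23A in 3. RPL31 was listed at 1.55, 1.25 and 0.634 CPM in myotubes, against 1.35, 1.81 and 1.81 CPM in myoblasts, and was not called (adjusted p = 0.18). Its level of 1.84 ± 0.734 FPKM in myotubes and 2.54 ± 0.388 FPKM in myoblasts stands far under the medians of the core genes, 1539 FPKM in myotubes and 1436 FPKM in myoblasts. The RPL31 row overlaps TBC1D8, which lies on the opposite strand, and the sources used here do not give the strand setting of the counting, so its few reads cannot be assigned to either gene with certainty.

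RPL5 and RPL11 bind the small rRNA of the large subunit and, outside the ribosome, the p53 regulator MDM2 in mammals. RPL5 had 142, 186 and 203 CPM in myotubes, against 113, 302 and 165 CPM in myoblasts. Its myoblast values spread over a range that holds all 3 myotube values, with 302 CPM in myoblast library 2 and 113 CPM in myoblast library 1. The log2 fold change of -0.13 ± 0.29 was not called (adjusted p = 0.70), and without myoblast library 2 it was 0.34 and still not called (adjusted p = 0.12). RPL11 averaged 942 ± 72.7 CPM in myotubes and 899 ± 32.7 CPM in myoblasts and was not called either (log2 fold change 0.07 ± 0.07, adjusted p = 0.39).

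RPL8, which lies beside the catalytic centre of the large subunit, was the core gene of that subunit with the largest rise. It had 1343, 1368 and 1231 CPM in myotubes, against 989.8, 1102 and 1129 CPM in myoblasts. The groups did not overlap, and RPL8 was 1.22-fold higher in myotubes (log2 fold change 0.29 ± 0.07, adjusted p = 0.003). RPL7A was the other core large subunit gene called higher, with a log2 fold change of 0.19 ± 0.07 (adjusted p = 0.037), although its groups overlapped at 1216 CPM in myotube library 1 and 1238 CPM in myoblast library 3.

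In the small subunit both falls and rises were called. RPS21, a small protein on the surface of the subunit, had 169, 213 and 228 CPM in myotubes, against 307, 401 and 341 CPM in myoblasts. It lies on chromosome 20 from 8125418 to 8130006, minus strand. No myotube library reached the lowest myoblast library, and RPS21 was 1.72-fold lower in myotubes (log2 fold change -0.78 ± 0.12, adjusted p = 0.0002).

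RPS23, a protein of the decoding centre, had 959, 1025 and 1091 CPM in myotubes, against 1381, 1526 and 1524 CPM in myoblasts. RPS20, which sits in the head of the subunit near the mRNA entry, had 819.9, 892 and 923 CPM in myotubes, against 1166, 1187 and 1250.4 CPM in myoblasts. In both the groups were apart, with log2 fold changes of -0.53 ± 0.07 (adjusted p = 4.8e-05) for RPS23 and -0.45 ± 0.06 (adjusted p = 8.1e-05) for RPS20.

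RPS3A, which lies near the site where mRNA leaves the subunit, had the largest rise among core genes. Its level was 2234, 2302 and 2127 CPM in myotubes, against 1478, 1539.7 and 1586 CPM in myoblasts. It lies on chromosome 4 from 33488560 to 33493521, plus strand. Every myotube library was above every myoblast library, by 1.45-fold in the fit (log2 fold change 0.53 ± 0.06, adjusted p = 1.2e-05).

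RPS15, in the head of the subunit, faces the path of the mRNA and the tRNAs. It had 1074, 1355 and 1265 CPM in myotubes, against 907, 954 and 1042 CPM in myoblasts. The groups were apart, with a log2 fold change of 0.35 ± 0.09 (adjusted p = 0.0048).

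Along the mRNA channel and the decoding site the genes did not move one way. RPS15 was higher. RPS23, RPS28 and RPS2 were lower, with log2 fold changes of -0.53, -0.40 and -0.21. On the TPM scale RPS28 and RPS2 were not called (adjusted p = 0.067 and 0.74, edgeR). RPS3A, higher at 0.53, and RPS20, lower at -0.45, placed above near the mRNA exit and entry, were not put in this group. RPS3, RPS14 and RPS26 were not called, at -0.15, 0.01 and -0.10. RPS26, which contacts the mRNA upstream of the start codon, was between 1058 and 1082 CPM in myotubes and between 1090.3 and 1214 CPM in myoblasts, so its groups were apart without a call (adjusted p = 0.14).

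RPS19 and RPS24, in which mutations cause Diamond-Blackfan anaemia in human, were also called higher, with log2 fold changes of 0.26 and 0.24. The remaining lower calls were RPL3, RPL6, RPL7, RPL21, RPS13, RPSA, RPS19BP1 and RPS27L, between -0.36 and -0.24 on the log2 scale.

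**Figure D2:**
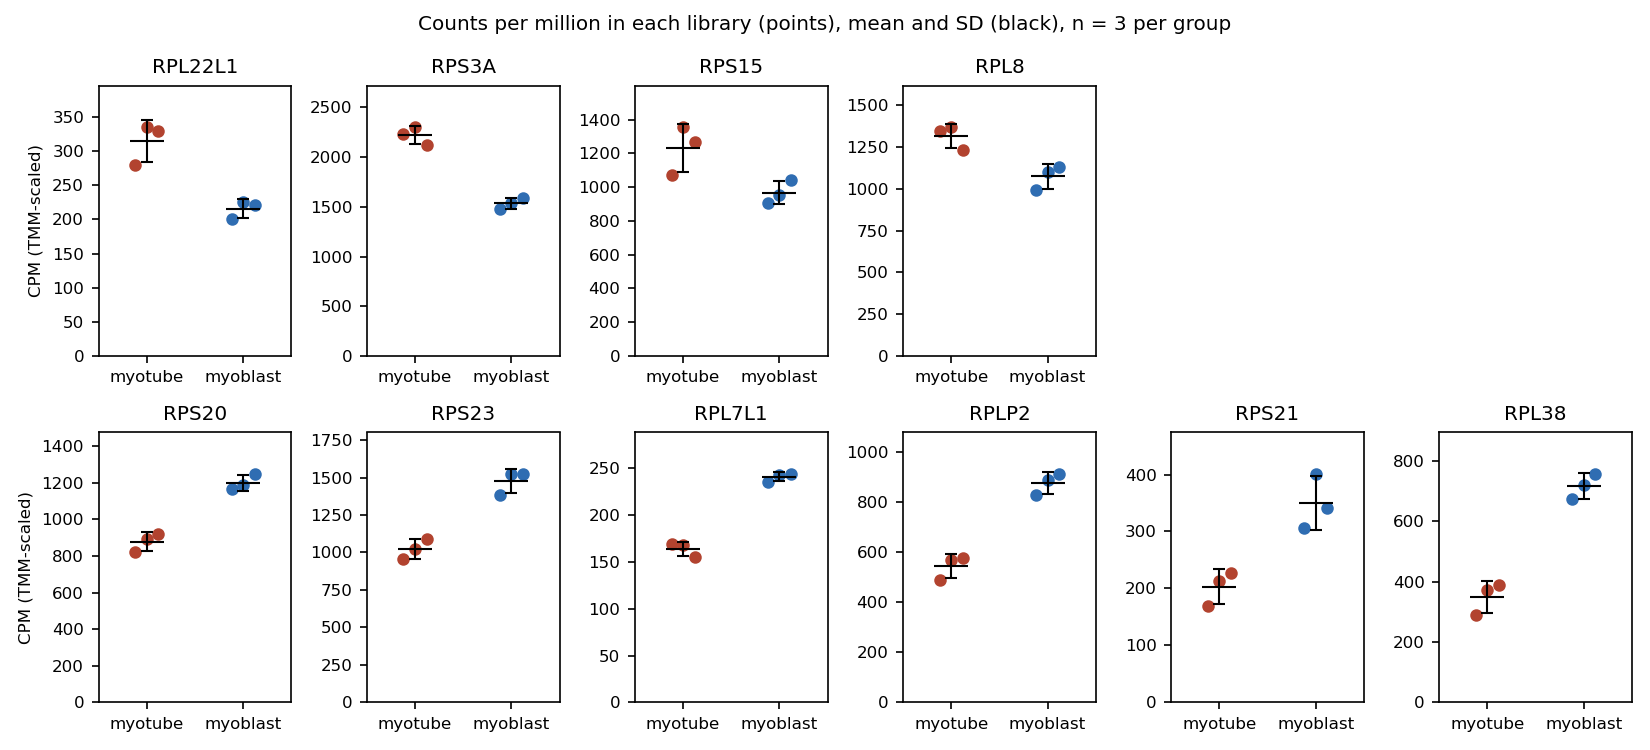
Levels in CPM (vertical axis, from 0) of 4 genes with a large called rise (upper row) and the 6 genes with the largest called fall (lower row) in each myotube and myoblast library, with mean and SD in black (n = 3 per group). In all 10 panels the points of the groups do not overlap. RPL38 has the largest fold change, with at most 387 CPM in myotubes and at least 674 CPM in myoblasts.

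Counted over libraries, 9 of the 66 genes had all myotube CPM values above all myoblast values, where 38.6% of all tested genes did. Another 22 had all myotube values below, where 37.5% of all tested genes did. RPS26 and RPS29 were apart without being called, and RPL7A and RPS27L were called without being apart. On the deposited FPKM scale 14 genes had all myotube values above all myoblast values, where 41.4% of all tested genes did, and 20 had them below, where 34.5% did.

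Paralogs were set beside their parent genes. RPL22L1, which can replace RPL22 in mouse ribosomes, had the largest rise of all 66 genes. It lies on chromosome 9 from 19805323 to 19807348, plus strand, and had 279, 335 and 329 CPM in myotubes, against 201, 226 and 221 CPM in myoblasts. RPL22L1 was thus 1.46-fold higher in myotubes with no overlap (log2 fold change 0.54 ± 0.08, adjusted p = 0.00014). RPL22 had 127, 149.6 and 136 CPM in myotubes, against 168, 187 and 175 CPM in myoblasts, and was 1.29-fold lower (log2 fold change -0.36 ± 0.07, adjusted p = 0.001), a call that was lost on the TPM scale (log2 fold change -0.18).

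On the FPKM scale RPL22L1 made up 65.7, 66.1 and 67.8% of the sum of the pair in myotubes, against 50.9, 51.3 and 52.3% in myoblasts. The FPKM of RPL22L1 divided by that of RPL22 was 1.92, 1.95 and 2.11 in myotube libraries, against 1.04, 1.05 and 1.09 in myoblast libraries, again without overlap. These ratios do not depend on library scaling.

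RPL7L1, a relative of RPL7 whose yeast counterpart acts in assembly of the large subunit, fell, as did RPL7. RPL7L1 had 169, 168 and 155 CPM in myotubes, against 235, 242 and 244 CPM in myoblasts (log2 fold change -0.55 ± 0.05, adjusted p = 8e-06). RPL7 had a log2 fold change of -0.29 ± 0.06 (adjusted p = 0.0016) but was not called on the TPM scale. RPL7L1 made up 11.3, 10.1 and 9.76% of the summed FPKM of both in myotubes, against 12.3, 12.4 and 11.8% in myoblasts, and all myotube shares were lower.

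RPS27L, a p53 target in human cells, stayed a minor partner of RPS27, with 1.27, 1.61 and 1.37% of their summed FPKM in myotubes, against 1.79, 1.77 and 1.71% in myoblasts. RPS27L had a log2 fold change of -0.28 ± 0.11 (adjusted p = 0.047). It lost its call without myotube library 1 or 3 and without myoblast library 2 or 3. RPS27 was not called, at 795 ± 25.2 CPM in myotubes and 777 ± 59.1 CPM in myoblasts (adjusted p = 0.66).

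RPL3L, the striated muscle paralog of RPL3 in mammals, was near the limit of detection. It had 23, 30 and 18 reads in the myotube libraries, against 2, 5 and 11 reads in the myoblast libraries. As CPM, too, all 3 myotube values were above all 3 myoblast values. The edgeR test repeated with no filter gave RPL3L a log2 fold change of 1.57 ± 0.48 (adjusted p = 0.013). RPL3L made up at most 0.0827% of the summed FPKM of RPL3 and RPL3L in any library. RPL3 itself was lower in myotubes, with 1091, 1279 and 1174 CPM, against 1348, 1390.1 and 1459 CPM in myoblasts (log2 fold change -0.24 ± 0.07, adjusted p = 0.0081).

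The row named RPL10L, in mammals a paralog of RPL10 enriched in the testis, is listed on an unplaced scaffold. No RPL10 row was among the 67 genes. The RPL10L row averaged 1431 ± 92.2 CPM in myotubes and 1556 ± 115 CPM in myoblasts and was not called (log2 fold change -0.12 ± 0.07, adjusted p = 0.15, edgeR). Its level was 1992 ± 138 FPKM in myotubes and 2071 ± 133 FPKM in myoblasts. The core medians were lower, at 1539 and 1436 FPKM. Whether this row is the paralog or RPL10 itself was not tested. RPS4, which has a single row here, was not called (log2 fold change 0.03 ± 0.07, adjusted p = 0.73). The sources used here do not say how reads that match more than 1 gene were treated, so values of paralogs may share reads.

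**Figure D3:**
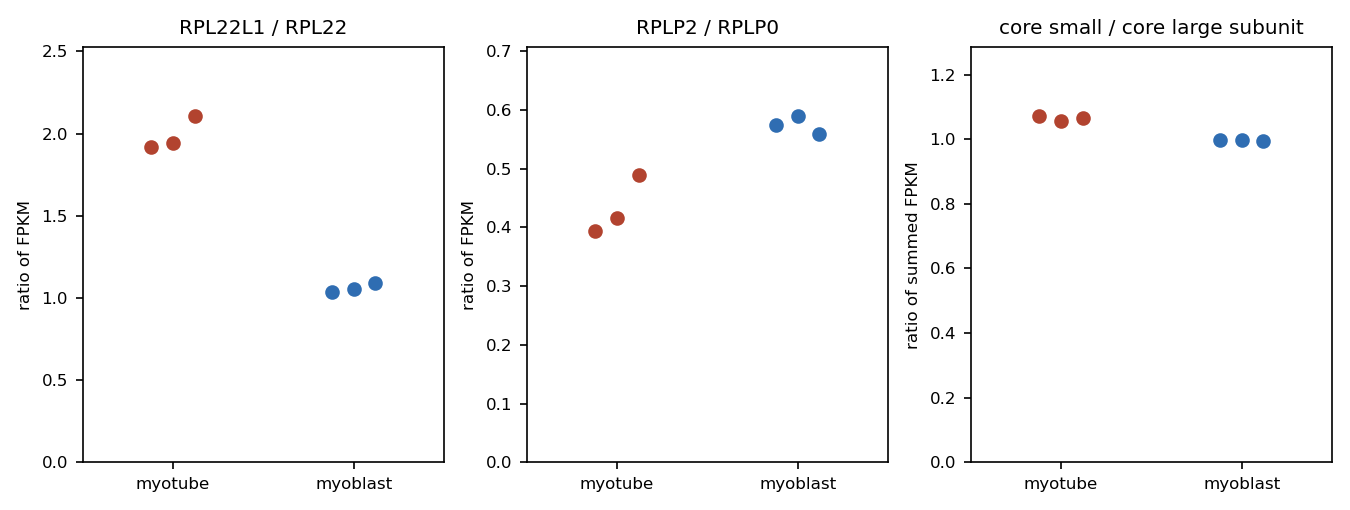
Ratios within each library (vertical axes, from 0), with 3 myotube libraries to the left of 3 myoblast libraries in each panel. RPL22L1 over RPL22 was 1.92 to 2.11 in myotubes and 1.04 to 1.09 in myoblasts, RPLP2 over RPLP0 was 0.393 to 0.489 in myotubes and 0.559 to 0.589 in myoblasts, and summed core small over core large subunit FPKM was above 1.05 in myotubes and close to 1 in myoblasts.

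Levels per length were high and their order was much the same in both groups. Core genes had a median of 1539 FPKM in myotubes and 1436 FPKM in myoblasts, and 57 of 61 in myotubes and 56 of 61 in myoblasts were above 500 FPKM. Of the 50 genes with the highest FPKM, 24 in myotubes and 22 in myoblasts were ribosomal protein genes. Small subunit core genes had a higher median level than large subunit ones, 1919 FPKM against 1384 FPKM in myotubes and 1806 FPKM against 1348 FPKM in myoblasts. Spearman's rank correlation of the 67 mean FPKM values between myotubes and myoblasts was 0.953, across genes that share their lengths and are not independent replicates.

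RPS29, a zinc-binding protein of the subunit head, had the highest level over all libraries, 3623 ± 32.5 FPKM in myotubes and 3307 ± 114 FPKM in myoblasts (SD, n = 3 each). RPS23 followed with 2773 ± 204 FPKM in myotubes and 3819 ± 186 FPKM in myoblasts, and RPS2, which lines the mRNA entry, with 3064 ± 209 FPKM in myotubes and 3387 ± 165 FPKM in myoblasts. RPS23 thus stood above RPS29 in every myoblast library and below it in every myotube library. At the low end, above RPL3L and RPL31, was RPS19BP1 with 31.6 ± 2.49 FPKM in myotubes and 38.8 ± 0.871 FPKM in myoblasts.

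**Figure D4:**
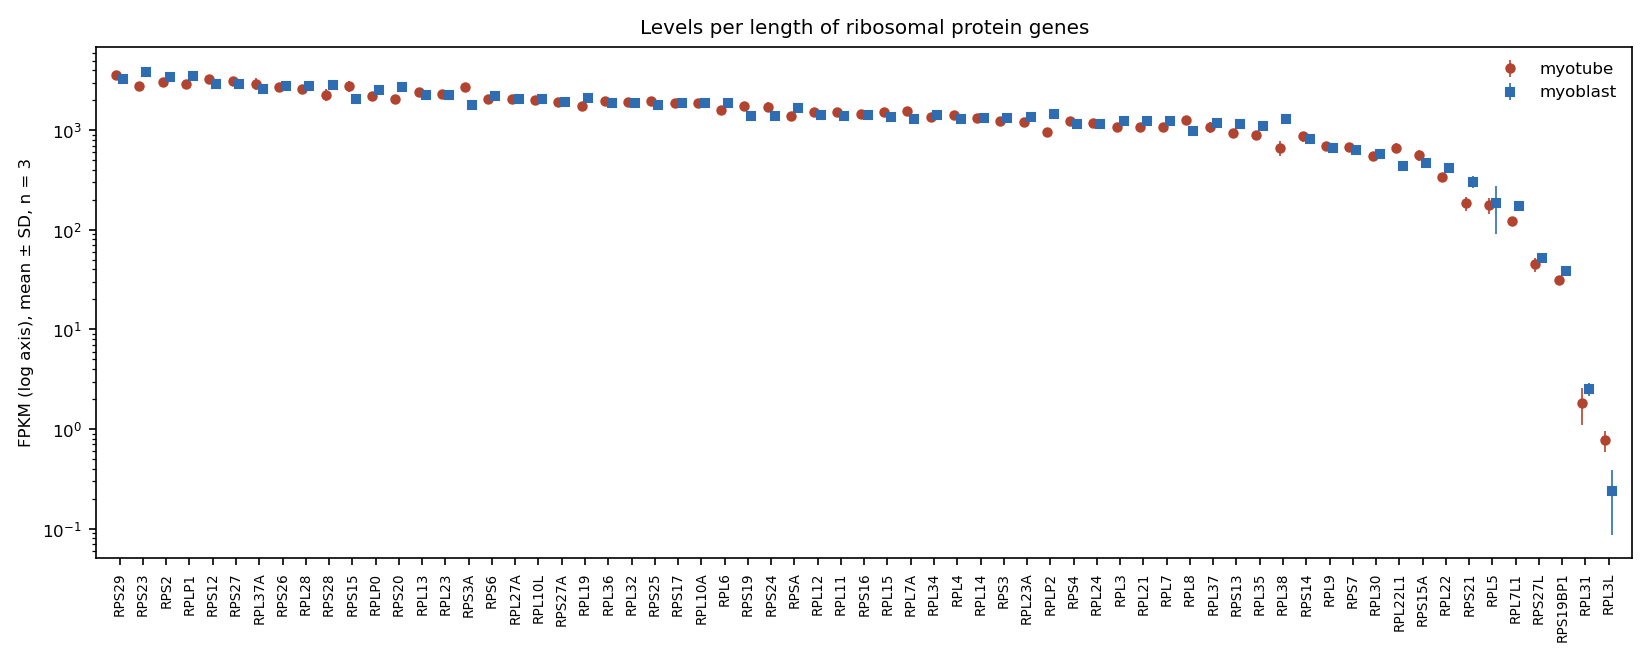
Mean FPKM (vertical axis, logarithmic) with SD of 65 ribosomal protein genes in myotubes (circles) and myoblasts (squares), n = 3 each, ordered by the mean over all libraries. Most genes lie between 500 and 4000 FPKM, and RPS27L, RPS19BP1, RPL31 and RPL3L lie under 100 FPKM in both groups.

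The genes are scattered over the genome, on 28 chromosomes and unplaced scaffolds, with 8 on chromosome 1, 7 on chromosome 2 and 5 on chromosome 4. RPL37, RPS6 and RPS23 lie on the sex chromosome Z, and their log2 fold changes were -0.21, -0.16 and -0.53, of which only that of RPS23 was called. RPL3L and RPS2 lie 2969 bases apart on chromosome 14. In vertebrates the introns of many ribosomal protein genes hold small nucleolar RNAs. Among the genes here, 21 contain 40 unnamed rows shorter than 200 bases, all on the strand of the ribosomal protein gene, and none of those rows had a mean count above 41.

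Library totals and scaling bear on the direction of the small changes. Gene counts summed to between 21528951 and 23111863 in myotube libraries and between 15731818 and 20537315 in myoblast libraries. The genes moved together between libraries of 1 group. Myotube library 1 was the lowest of its group for 50 of 66 genes, and myoblast library 1 for 62 of 66. These counts were not made for all tested genes. In myotube library 1 the median log2 deviation from the group mean was -0.096 over the 66 genes and -0.0054 over all tested genes. In myoblast library 1 it was -0.080 and -0.0017. For all tested genes, only those with reads in each library of the group entered. Loci outside Ensembl were listed differently in the tables of the groups, 1710 in myotube and 1069 in myoblast tables, so a batch in which the tables were made cannot be told apart from the group.

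The number of calls in each direction changed with the scaling. When libraries were scaled by the ribosomal protein genes themselves, a choice made after the data were seen, 10 genes were higher and 19 lower, where 37.3% and 30.3% of all tested genes were. On the TPM scale, on which summed length-corrected values are equal, 27 were higher and 7 lower, where 45.8% and 27.0% of all tested genes were. That scale moved the median log2 fold change of all tested genes to 0.20 and that of the ribosomal protein genes to 0.11, a shift common to all genes. After removal of a trend with gene length, 22 were higher and 15 lower, where 34.8% and 37.4% of all tested genes were, and the median was 0.07 over the ribosomal protein genes and -0.02 over all tested genes. With TMM the order was the other way, at -0.08 and 0.01. The length trend was not fully removed for the shortest genes. All 912 tested genes under 500 bases, by the length that FPKM implies, kept a median of 0.065. Longer classes lay between -0.039 and -0.006. Of the ribosomal protein genes 23 are under 500 bases, and the part of length in their median of 0.07 was not tested.

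The other scalings, like TMM, gave fewer genes called higher than lower. Library totals gave 13 higher and 19 lower, where 39.5% and 32.9% of all tested genes were. Quantile normalization gave 17 higher and 25 lower, where 35.2% and 36.6% of all tested genes were. It was fitted with limma on log2 CPM and not with edgeR, so test and scaling changed together there. Median-of-ratios size factors gave 9 higher and 24 lower, where 36.4% and 36.2% of all tested genes were.

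Some calls held under each of 8 scalings, those above and TMM factors computed without the ribosomal protein genes. In all 8, 9 genes were called higher, among them RPL22L1, RPL7A, RPL8, RPS15, RPS19, RPS24 and RPS3A. RPL35, RPL38, RPL7L1, RPLP2, RPS20, RPS21 and RPS23 were called lower in all 8. Another 36 genes were called in only some scalings and in 1 direction, 13 were never called, and RPL4 was called in both directions. How many of all tested genes kept a call in all 8 was not counted, so these counts describe no trait of the ribosomal protein genes. The genes called lower with TMM and not on the TPM scale were RPLP0, RPLP1, RPL3, RPL6, RPL7, RPL19, RPL21, RPL22, RPL23A, RPS2, RPS13, RPS28, RPSA, RPS27L and RPS19BP1. Of these, RPLP1, RPL6, RPL19, RPL22, RPS13, RPS28, RPSA and RPS19BP1 were called lower in 7 of the 8 scalings. RPLP0, RPL3, RPL7 and RPL21 were called in 6, RPS2 and RPS27L in 4, and RPL23A in 3.

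**Figure D5:**
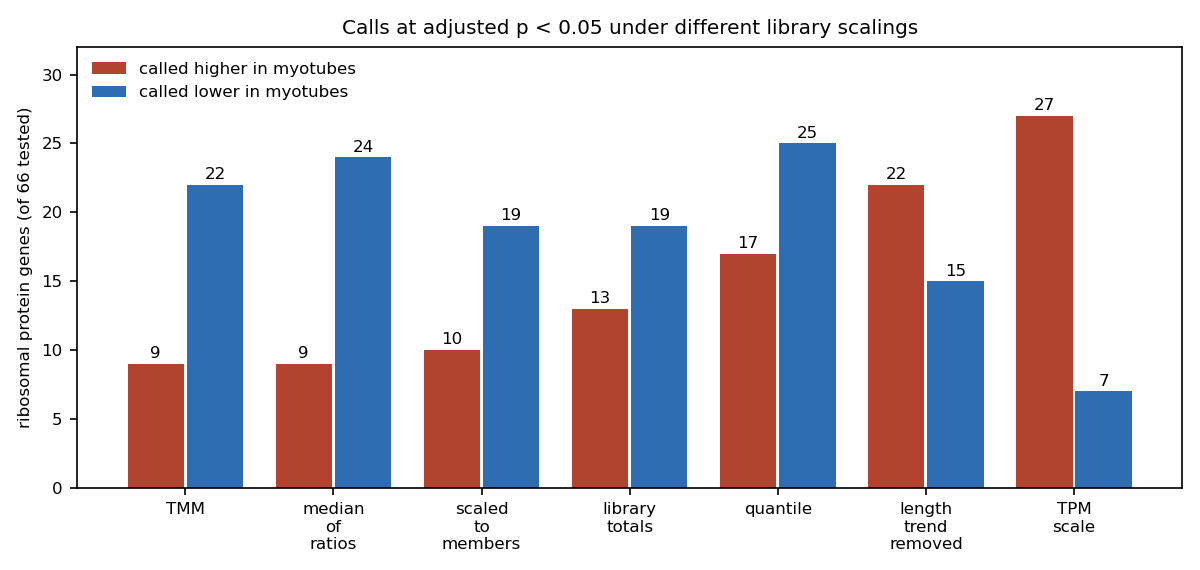
Number of the 66 tested ribosomal protein genes (vertical axis) called higher or lower in myotubes (adjusted p under 0.05) under 7 library scalings (horizontal axis). TMM scaling gives 9 higher and 22 lower, and the TPM scale 27 higher and 7 lower. Quantile normalization was fitted with limma and the other scalings with edgeR.

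Gene length tracked the changes over all tested genes. The median log2 fold change was -0.21 for genes whose length, as implied by the deposited FPKM, ran from 500 to under 1000 bases and 0.51 for genes of 4000 bases or more. By this implied length, which is often shorter than the listed one, all 66 ribosomal protein genes were under 2000 bases. Their median was -0.15 over the 31 genes from 500 to under 1000 bases, and -0.06 over the 23 shorter and the 12 longer ones. All tested genes had a median of -0.02 under 500 bases and of -0.09 from 1000 to under 2000 bases. The trend over all tested genes was thus not steady at the short end.

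The libraries also fell into classes that cross the groups, a split noticed after the data were seen. An unnamed row on the mitochondrial chromosome had 639 CPM in myotube library 1, against 587 and 615 CPM in myoblast libraries 1 and 3, but 10.6 and 13.1 CPM in myotube libraries 2 and 3 and 21.2 CPM in myoblast library 2. With that split as a term in edgeR, 8 ribosomal protein genes were higher and 25 lower, where 35.5% and 34.6% of all tested genes were. Of the core large subunit genes only RPL8 was then called higher. Within the high class, of 1 myotube and 2 myoblast libraries, the median log2 ratio of the 66 genes was -0.14, with -1.31 for RPL38 and 0.41 for RPL22L1. Within the low class, of 2 myotube and 1 myoblast libraries, the median was -0.08, with -0.92 for RPL38 and 0.55 for RPL22L1. Called rises that were smaller in the high class than in the low class included RPS24 (0.07 against 0.32), RPL7A (0.05 against 0.27) and RPS15 (0.14 against 0.46). RPL5 was at 0.03 in the high class and at -0.64 in the low class.

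Related genes were read from the same test, in lists taken up with earlier results of these data known. Some ribosomal proteins go by other names. FAU, the precursor of RPS30, was lower with -0.28 ± 0.07 (adjusted p = 0.0055). GNB2L1, the scaffold protein RACK1 of the small subunit, was higher with 0.41 ± 0.07 (adjusted p = 0.00028). In both genes the values of the groups did not overlap.

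The counts that follow stand beside the 36.7% of all tested genes called higher and 35.7% called lower under TMM. On the TPM scale these shares were 45.8% and 27.0%, and with the length trend removed 34.8% and 37.4%. Of 44 tested ribosome biogenesis genes 7 were higher and 23 lower, with a median log2 fold change of -0.26. The largest called falls were NHP2, a protein of the H/ACA snoRNPs (-1.06 ± 0.10, adjusted p = 5.5e-06), and NOP16 (-0.94 ± 0.08, adjusted p = 3e-06). The largest rises were NOP14 (0.56) and HEATR1 (0.35). On the TPM scale the same list had 13 higher and 14 lower, and with the length trend removed 4 higher and 23 lower. Of 10 RNA polymerase I genes 2 were higher, TAF1B and POLR1A, and 5 lower, most of all POLR1D and POLR1C (-1.17 and -0.80). For these genes 4 were higher and 4 lower on the TPM scale, and 1 higher and 6 lower with the length trend removed.

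A list of other mRNAs with a terminal oligopyrimidine tract, mostly of translation factors, had 9 of 13 genes higher and 2 lower under TMM and 11 higher and 1 lower on the TPM scale, with a median log2 fold change of 0.34 under TMM. EEF1A2, the muscle and neuron form of elongation factor EEF1A, had 217, 203 and 189 CPM in myotubes, against 73.7, 88.5 and 87.6 CPM in myoblasts (log2 fold change 1.28 ± 0.08, adjusted p = 3.2e-07). PABPC1, the cytoplasmic poly(A)-binding protein, followed at 1.11 ± 0.08 (adjusted p = 5.9e-07). Both genes called lower are no translation factors, VIM, an intermediate filament protein, at -0.66, and NAP1L1, a histone chaperone, at -0.19 and not called on the TPM scale (-0.01, adjusted p = 0.90).

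Of 17 genes in a list named for regulators of ribosomal protein mRNA, 10 were higher and 5 lower under TMM. On the TPM scale 10 were higher and 3 lower, where 45.8% and 27.0% of all tested genes were. With the length trend removed, 8 were higher and 8 lower, where 34.8% and 37.4% of all tested genes were. DDIT4, an inhibitor of mTOR signalling, had the largest rise, with 668, 523 and 454 CPM in myotubes, against 99.5, 113 and 118 CPM in myoblasts (log2 fold change 2.32 ± 0.13, adjusted p = 1.4e-07). MDM2, in the list though it is the p53 regulator that RPL5 and RPL11 bind in mammals, followed at 1.66 ± 0.11 (adjusted p = 3.5e-07, edgeR). LARP1, named here for its role and not for its size, had 643, 621 and 604 CPM in myotubes, against 349, 309.9 and 294 CPM in myoblasts (log2 fold change 0.97 ± 0.07, adjusted p = 8.4e-07). RPS6KB2, an S6 kinase, and EIF4EBP2, a translation repressor under mTOR, were lower at -0.85 and -0.37.

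Marker genes of cell types moved beside these values. All 5 markers of dividing cells were lower in myotubes, with a summed level of 163 to 181 CPM, against 1187 to 1228 CPM in myoblasts. Of 11 skeletal muscle markers 7 were higher, among them the differentiation factor MYOG, and 3, MYOD1, MYF5 and DES, were lower, DES under TMM but not on the TPM scale (adjusted p = 0.99), with sums of 2493 to 2619 CPM in myotubes and 1987 to 2162 CPM in myoblasts. All 8 tested fibroblast markers were higher, with sums of 10717 to 12464 CPM in myotubes and 4769 to 4896 CPM in myoblasts, and 5 of 6 macrophage and blood markers were lower, with sums of 177 to 191 CPM in myotubes and 736 to 779 CPM in myoblasts. Of 6 neural crest and pigment markers 2 were tested. SOX10 had 0.215, 0.0432 and 0.136 CPM in myotubes, against 15.9, 16.6 and 17.2 CPM in myoblasts and was called lower (adjusted p = 6.9e-09), and MITF was higher (0.20 ± 0.08, adjusted p = 0.048). No listed marker with a row was at 0 in all libraries. The part of other cell types in the ribosomal protein values was not tested. In such bulk samples fewer cells of a type and less RNA per cell cannot be told apart.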

How the data were processed

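RNA-seq was measured in 6 libraries, 3 of myotubes and 3 of myoblasts, grouped by their labels. For each gene the authors deposited an unnormalized count of reads with its FPKM, per the file headers. The submitters' processing notes name HISAT and HTSeq. Their versions, the genome build and the strand setting were not given in the sources used here. FPKM implied 1 length per gene, the same in all libraries within 1%, for all 65 ribosomal protein genes with at least 50 reads in every library, and that length equalled the listed one for 7. Loci without an Ensembl identifier were left out (1.66 to 2.12% of counts), as were 2 rows naming no gene in each myotube table.

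Genes whose FPKM averaged 1 or more were tested with edgeR 4.0.16 (quasi-likelihood, TMM, two-sided, Benjamini-Hochberg over all tested genes, R 4.3.3). Standard errors of the log2 fold changes were computed from the fold change and the F statistic of the same test, not estimated apart from it. The code was tested on simulated data. Alternatives used limma 3.58.1 on log2(FPKM + 1) and on quantile-normalized log2 CPM, DESeq2 1.42.0, and other scalings and filters. Genes described in full were 4 of the 6 largest called rises, the 6 largest called falls, paralog pairs, and the 3 highest and 3 lowest levels. Some genes are counted but not reported here by name. The 67 genes, the related lists and the markers were chosen with earlier results of these data known. Overlap with a listed gene of at least 200 bases affects 7 genes, RPL4, RPL5, RPL9, RPL22, RPL31, RPS4 and RPS19.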

Additional observations from a re-analysis of the deposited data

How the results depend on the processing

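Results were refitted with another tool, other scalings and filters, and without each library in turn. The replicate number as a block gave 10 ribosomal protein genes higher and 24 lower. Same-numbered libraries deviated from their group means with correlations of -0.035, 0.104 and -0.155, and differently numbered ones between -0.15 and 0.184. These values show no pairing by number, but with 3 libraries a group they cannot exclude it. The count called higher was 27 on the TPM scale, 17 with quantile normalization, 22 with the length trend removed and 22 with block and length trend, where 12 were lower. Lower calls on the TPM scale were 7. The median log2 fold change was 0.109 on the TPM scale, 0.074 with the length trend removed and 0.075 with the block added. Among the 41 genes that overlap no other listed row, RPL3L untested, 5 were higher and 15 lower under TMM. Over all tested genes 36.7% were higher and 35.7% lower. Requiring a change of 1.5-fold left 0 higher and 3 lower, and 3103 and 2714 of all tested genes. As a share of FPKM the difference of myotubes minus myoblasts was 1.113 percentage points. Leaving out 1 library at a time gave 7 to 12 higher and 19 to 26 lower. Scaled to the ribosomal protein genes, which was chosen after seeing the data, as was the split, it was 14 higher without myotube library 1. The shares of all tested genes with the block or without 1 library are not given here, so those counts describe no trait of the set.

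The sign changed in these uncalled genes. RPL5 was at 0.038 and 0.039 in limma with a pseudocount of 1 and 0.1, at 0.063 on the TPM scale, 0.118 with quantile normalization, 0.021 with the length trend removed and 0.118 with the block added. On the TPM scale, with the length trend removed and with the block added, RPL10L was at 0.066, 0.051 and 0.051, RPS26 at 0.088, 0.028 and 0.028, and RPS3 at 0.034, 0.006 and 0.004. RPS14 was at -0.025 with the split as a term. Leaving out 1 library at a time, the values ran between -0.399 and 0.343 for RPL5, -0.063 and 0.087 for RPS14, -0.026 and 0.063 for RPS4, -0.007 and 0.048 for RPL12, and -0.017 and 0.089 for RPS27. The cause was not tested. RPL23A and RPS2 lost their calls without myoblast library 3. Levels under 3 FPKM, as in RPL31 and RPL3L, rest on fewer than 40 reads a library, which limits their precision.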

Other observations

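Of the ribosome biogenesis genes, RRP12 and RRP15 followed the library split and not the groups. RRP12 had 90.3, 4.19 and 4.71 CPM in myotubes, against 118, 5.79 and 121 CPM in myoblasts. RRP15 had 35.8, 1.43 and 1.45 CPM in myotubes, against 39.9, 2.37 and 46.9 CPM in myoblasts. Both were high in myotube library 1 and myoblast libraries 1 and 3 and low in the other 3 libraries, as was the unnamed mitochondrial row. Neither was called (adjusted p = 0.31 and 0.34, edgeR). They were picked after their values were seen.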
